A study of Drosophila melanogaster with 22 samples.

Results

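The genes for the protein parts of the cytosolic ribosome were described across embryos, larval imaginal discs and pharate appendages of the fruit fly Drosophila melanogaster. Members were all genes whose symbol begins with RpL or RpS followed by a letter or a digit, and the genes of the mitochondrial ribosome, whose symbols begin with mRp, were kept apart. The rule found 84 members, 49 of the large subunit (RpL) and 35 of the small subunit (RpS), among 13934 gene entries, of which 13686 carry a name that occurs once. It uses names and no measured value. Another 4 genes known to encode ribosomal proteins under older names, sta (RpSA), oho23B (RpS21), sop (RpS2) and Qm (RpL10), fall outside it and are given for comparison.

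The small subunit of the ribosome reads the messenger RNA and the large subunit joins the amino acids. A ribosome needs nearly every one of its proteins in equal number, so cells that grow spend a large part of their messenger RNA on these genes. In flies, loss of 1 copy of many of them gives the Minute phenotype, with slow development and thin bristles, and several are present as duplicated genes of which a copy is best known from the germline.

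The series holds 22 samples: 9 of messenger RNA, 11 of open chromatin (FAIRE-seq) and 2 genomic DNA inputs, and only the RNA samples enter here. Embryos were whole, of strain OregonR, taken 2 to 4, 6 to 8 or 16 to 18 h after egg laying. Discs were the T3 leg, haltere and wing discs of 3rd instar larvae, and the pharate tissues were the T3 leg, haltere and wing of pharate adults at stage P14, all of strain y;cn,bw,sp, with no other treatment named. A disc is a folded epithelium of the larva that grows into an adult appendage, and a pharate adult has completed its form but not yet left the pupal case. T3 is the hindmost thoracic segment, which bears the haltere in place of the wing.

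Transcript levels were deposited as FPKM, in 1 table each for embryos, discs and pharate appendages. The name stands for fragments per kilobase of transcript and 1e6 mapped fragments, but the scaling used is not given. Columns summed to between 3.49e+06 and 7.75e+06 FPKM, so a value is not read here as a count per 1e6 mapped fragments. The labels name 2 replicates behind each column, but each tissue or stage has 1 column, so there is no replicate check, no error and no test for any value below, and "higher" and "lower" describe listed values only. The tables were scaled separately, and ratios were taken only within a table, as log2((FPKM + 1)/(FPKM + 1)) over genes at 5 FPKM or more in either column. The numbers of reads behind the columns are unknown. The tissue labels held against their defining genes: the leg genes Sp1, btd and dac summed to 1468 FPKM in the leg disc, against 36.2 in the wing disc. The wing genes vg and nub summed to 83.3 FPKM in the leg disc, against 628 in the wing disc. Ubx, the gene that sets haltere identity, was at 332 FPKM in the haltere disc, against 6.06 in the wing disc. It was also at 319 FPKM in the leg disc, so it does not tell haltere from leg. The 3 leg genes do, with a sum of 50.6 FPKM in the haltere disc.

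Ribosomal protein genes were among the most abundant transcripts in embryos and discs and made up a far smaller share of the pharate table. Embryos, discs and pharate tissues lie in separate tables, so a difference between them cannot be told apart from one between tables. Their share of all summed FPKM was 33.7%, 33.0% and 27.5% in embryos of 2 to 4, 6 to 8 and 16 to 18 h. It was 41.3% in leg discs, 41.9% in haltere discs and 39.8% in wing discs. Among pharate tissues it was 9.05% for leg, 12.8% for haltere and 5.91% for wing. Of the 100 highest genes of a column, 73 or 74 were members in every embryo and disc column, against 22 for pharate leg, 44 for pharate haltere and 8 for pharate wing. A few other genes took much of the sum in the pharate tissues: the 10 highest genes outside the members held 27.9% of it for leg, 23.0% for haltere and 33.4% for wing, and between 5.80% and 10.3% in embryos and discs. With those 10 genes left out of the sum, the share in the pharate wing was 8.86%. The 71 genes of the mitochondrial ribosome held between 0.0943% and 0.585% of any column.

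**Figure D1:**
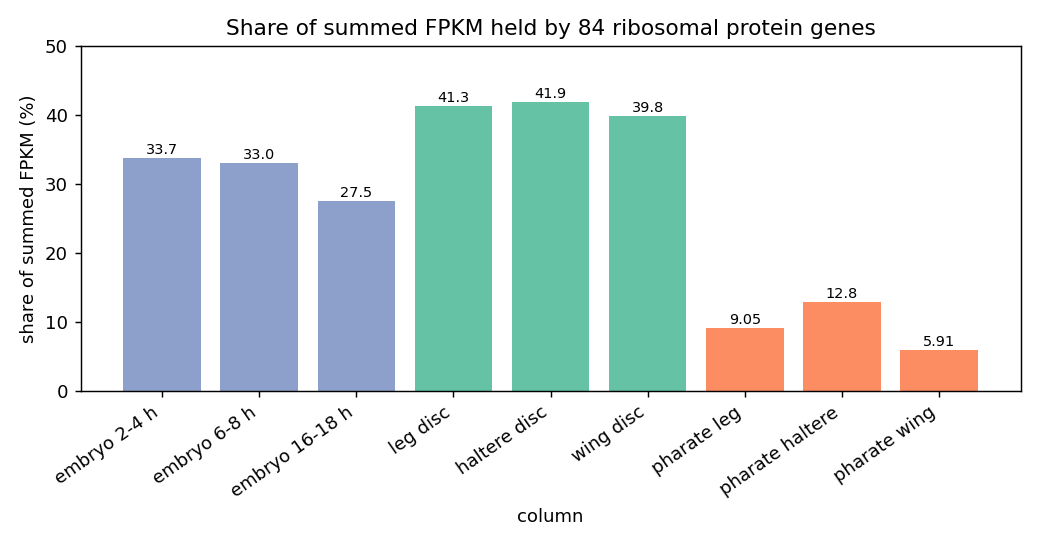
Share of all summed FPKM (%, vertical axis) held by the 84 ribosomal protein genes in each of the 9 columns (horizontal axis), with 1 bar per column and no error because each column is 1 value. The discs lie between 39.8% and 41.9%, the embryos between 27.5% and 33.7% and the pharate tissues between 5.91% and 12.8%. Each of these groups comes from a separate table.

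Most members sat close together in level. Of the 84, 77 were above 0 in all 9 columns and 75 reached 1000 FPKM in every column. Among members at 1000 FPKM or more, the median was 19651, 15624 and 12225 FPKM at the 3 embryo stages in order of age. It was 26664 FPKM for leg disc, 35218 for haltere disc and 22732 for wing disc, and 9549 FPKM for pharate leg, 8565 for pharate haltere and 5737 for pharate wing. The upper quartile of these members was between 1.33 and 1.62 times the lower quartile in each column. The order of the members by level was much alike between columns of a table, with a Spearman rho of 0.905 to 0.952 over 77 members among embryo stages, 0.945 to 0.984 over 76 among discs and 0.845 to 0.896 over 76 among pharate tissues. These coefficients are across genes, which share library and transcript length and are not replicates.

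**Figure D2:**
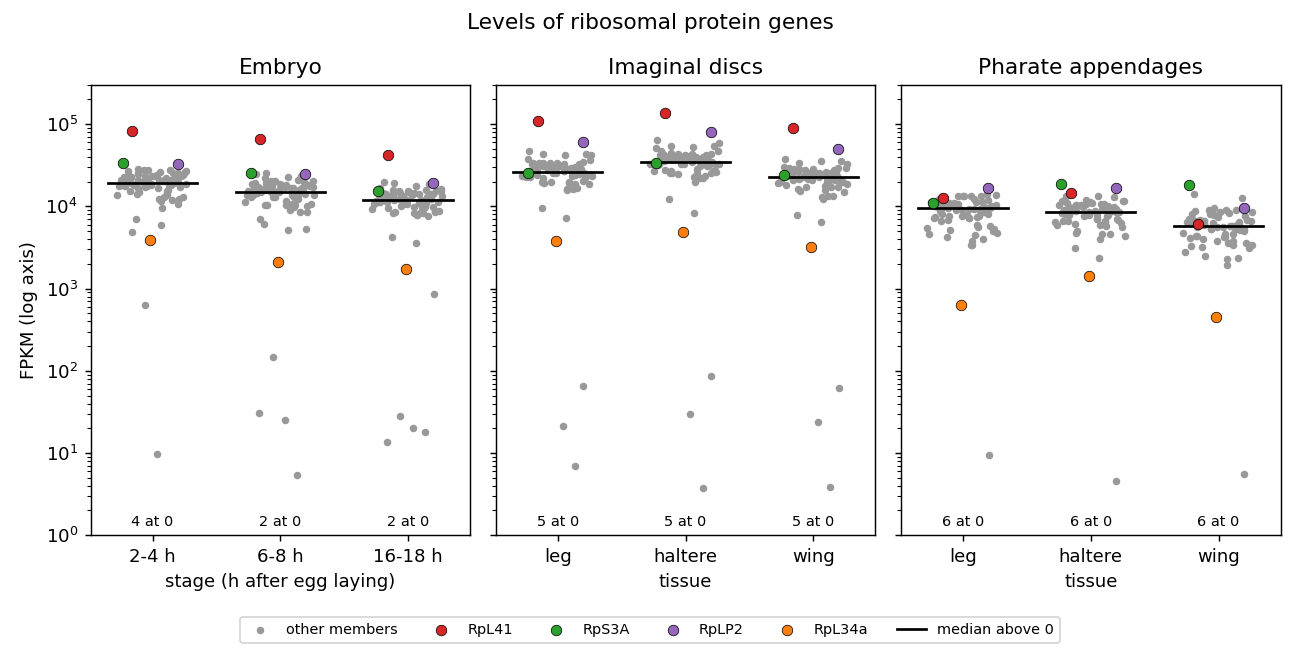
FPKM (vertical axis, log scale) of each member in each embryo stage, disc and pharate appendage (horizontal axis), where each point is 1 gene, 4 genes are coloured and the black line is the median of members above 0; members listed at 0 are counted at the foot of each column. Most members lie within a narrow band, RpL41 lies above it in embryos and discs, and RpL34a lies below it throughout.

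Of the large subunit, RpL41, which codes for one of the shortest proteins known, was the highest member of every embryo and disc column. It was listed at 81653, 66299 and 42635 FPKM over the embryo stages in order of age, and at 108554 FPKM for leg disc, 137591 for haltere disc and 89007 for wing disc. In these columns it stood between 3.49 and 4.24 times above the median member. Among pharate tissues it was at 12585 FPKM for leg, 14580 for haltere and 6185 for wing, which is 1.32, 1.70 and 1.08 times the median member. FPKM divides by transcript length, and the bearing of so short a transcript on the value was not tested.

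The P-stalk, the arm of the large subunit that recruits translation factors, consists of RpLP0 at its base and dimers of RpLP1 and RpLP2. A ribosome carries more copies of RpLP1 and RpLP2 than of RpLP0, and both genes were listed above RpLP0 in all 9 columns. RpLP2 over RpLP0 was 1.89, 2.85 and 2.26 at the successive embryo stages, 2.68 for leg disc, 2.97 for haltere disc and 2.51 for wing disc, and 2.92 for pharate leg, 2.40 for pharate haltere and 2.60 for pharate wing. RpLP1 over RpLP0 lay between 1.32 and 2.36. The low values of both ratios at 2 to 4 h go with a high level of RpLP0, which was listed at 17056, 8576 and 8625 FPKM at the 3 embryo stages.

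Further members are known for side roles. RpL5 and RpL11, which bind the 5S RNA of the large subunit, were at 26072 and 24472 FPKM for leg disc, 31424 and 30741 for haltere disc and 23326 and 20817 for wing disc. RpL5 was 1.48, 1.52 and 2.22 times the median member in pharate leg, haltere and wing. RpS27A, made as a fusion with ubiquitin, was at 41598 FPKM for leg disc, 52429 for haltere disc and 35474 for wing disc, above the upper quartile of members in each. RpL40, the other ubiquitin fusion, was lower in each, at 25776, 34952 and 21500 FPKM in the same order. RpS6, the target of S6 kinase, was at 27106 FPKM for leg disc, 32684 for haltere disc and 23355 for wing disc. RpL32, long used in flies as a reference transcript under the name rp49, was at 32523, 43247 and 25806 FPKM in leg, haltere and wing discs.

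A total of 7 members were listed at 0 in at least 1 column. RpL10Aa and RpS28a, copies of RpL10Ab and RpS28b, were at 0 in all 9. RpS10a and RpL37b were at 0 in all discs and pharate tissues, and RpS19b and RpL22-like in all pharate tissues. RpL37b and RpL22-like were also at 0 in the 2 to 4 h embryo. RpS15, a small-subunit protein with no copy among the members, was at 23822, 16983 and 13820 FPKM in the successive embryo stages and at 7847 FPKM for pharate leg, 8748 for pharate haltere and 5555 for pharate wing, but is listed at 0 in all 3 discs. The translation factor eIF-4a, which every cell uses, is likewise listed at 0 in all 3 discs, in the pharate leg and in embryos of 2 to 4 and 6 to 8 h. A listed 0 is therefore given as such and not as absence of the transcript.

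The leg disc had slightly more of nearly every member than the wing disc. Of 79 members with 5 FPKM or more in either disc, 78 had a ratio above 0, against 57.4% of all 8321 genes in this comparison. None was 2-fold higher or lower, where 10.7% of all genes were 2-fold higher and 3.55% lower. At 1.5-fold, 1 was higher and none lower, against 13.8% and 6.39% of all genes. The median log2 ratio of the members was 0.25, a fold of 1.19, and that of all genes 0.05. The members differed little among themselves: 77 of 79 lay within 0.25 of the members' median, and their interquartile range was 0.078, against 0.41 for all genes. RpL3, a large-subunit protein that reaches toward the catalytic centre, was the lowest member outside the duplicated genes, at 22223 FPKM in the leg disc, against 21383 in the wing disc, with a ratio of 0.06. RpS3A, a small-subunit protein, followed at 25499 against 24034 FPKM, a ratio of 0.09. RpL38, a small protein at the surface of the large subunit, was the highest, at 15995 FPKM in the leg disc, against 12450 in the wing disc, with a ratio of 0.36. RpS26 and RpL37a followed, both at 0.36, and RpL39 at 0.35. The lowest and highest of all 79 were the scarce duplicates RpS19b (-0.14) and RpL22-like (0.69), both at 23.7 FPKM or less in these discs.

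The haltere disc had more than the wing disc of every member that reached 5 FPKM in either. All 78 members with 5 FPKM or more in either disc had a ratio above 0, against 52.8% of 8577 genes. None was 2-fold higher or lower, against 15.5% and 4.29% of all genes, while 50 were at least 1.5-fold higher and none lower, against 21.9% and 11.9%. The members' median was 0.65, a fold of 1.57, beside 0.04 for all genes and 0.35 for the 641 other genes with 1000 FPKM or more. Large-subunit genes had a median of 0.67 (46 genes) and small-subunit genes of 0.63 (32 genes). RpL37A had the highest ratio, with 28505 FPKM in the haltere disc, against 15644 in the wing disc, a log2 ratio of 0.87. RpS26 (0.86), RpS27 (0.84), RpL36 (0.82) and RpL37a (0.82) came next, where RpL37A and RpL37a are different proteins in spite of their symbols. The low end again held RpL3, at 26996 FPKM in the haltere disc, against 21383 in the wing disc, a ratio of 0.34, followed by the scarce RpS19b (0.34), RpL4 (0.37) and RpS15Ab (0.38).

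Between leg and haltere discs the members were lower in the leg, with a median of -0.38 and 78 of 79 below 0, against 48.7% of all 8529 genes. None of the 79 was 2-fold apart, where 3.24% of all genes were higher and 12.6% lower in the leg disc. At 1.5-fold, 1 was higher and none lower, against 6.6% and 17.3%. RpL37A (-0.55), RpS12 (-0.53) and RpS27 (-0.52) had the lowest ratios. The scarce RpL22-like, at 6.87 FPKM in the leg disc and 3.79 in the haltere disc, was the one above 0, at 0.72.

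The size of these disc differences, and for some members their sign, depend on how the columns are scaled. With each column divided by the summed FPKM of all genes outside the members, the median of all genes moved by -0.16, -0.51 and 0.35 in leg over wing, haltere over wing and leg over haltere, and the members' medians became 0.091, 0.13 and -0.026. Above 0 were then 71 of 79 members in leg over wing, 63 of 78 in haltere over wing and 27 of 79 in leg over haltere, and RpL3 was below 0 in both comparisons with the wing disc. The members' share of the summed FPKM, given above, lay between 39.8% and 41.9% in discs. It sets the members against the rest of the same column, so it is no separate check on that division. All 3 disc comparisons share columns and are not independent of each other.

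Markers of several other larval tissues went the same way as the members in the disc comparisons, and those of trachea and neurons were mixed or went the other way. In haltere over wing disc, all 6 fat body markers tested (Lsp1alpha, Lsp1beta, Lsp1gamma, Lsp2, Fbp1 and Fbp2) were 2-fold higher, with a sum of 15199 FPKM in the haltere disc, against 1189 in the wing disc. All 5 salivary gland markers tested were too, with a sum of 27899 against 2418 FPKM, and the remaining one, Sgs4, was at 0 in both. The 6 midgut markers summed to 3038 against 137 FPKM, and the 4 that could be tested were 2-fold higher. All 4 haemocyte markers were 2-fold higher, with a sum of 470 against 53.3 FPKM. Of 7 muscle markers 5 were 2-fold higher, with a sum of 68541 against 6484 FPKM, while wupA was listed at 0 in the haltere and leg discs. Of all genes, 15.5% were 2-fold higher in haltere over wing disc. Over the wing disc the leg disc had a smaller excess of the same lists, with sums of 4253 against 1189 FPKM for fat body and 20019 against 6484 FPKM for muscle. Of the tracheal markers, trh was at 35.6 FPKM in the haltere disc, against 110 in the wing disc, serp at 619 against 728 FPKM, and verm at 0 in all discs. The one neuronal marker that could be tested, elav, had a ratio of 0.10 in haltere over wing disc. The part of these tissues in the ribosomal protein ratios was not tested. In tissue of many cells, more cells of a type and more RNA per cell cannot be told apart.

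**Figure D3:**
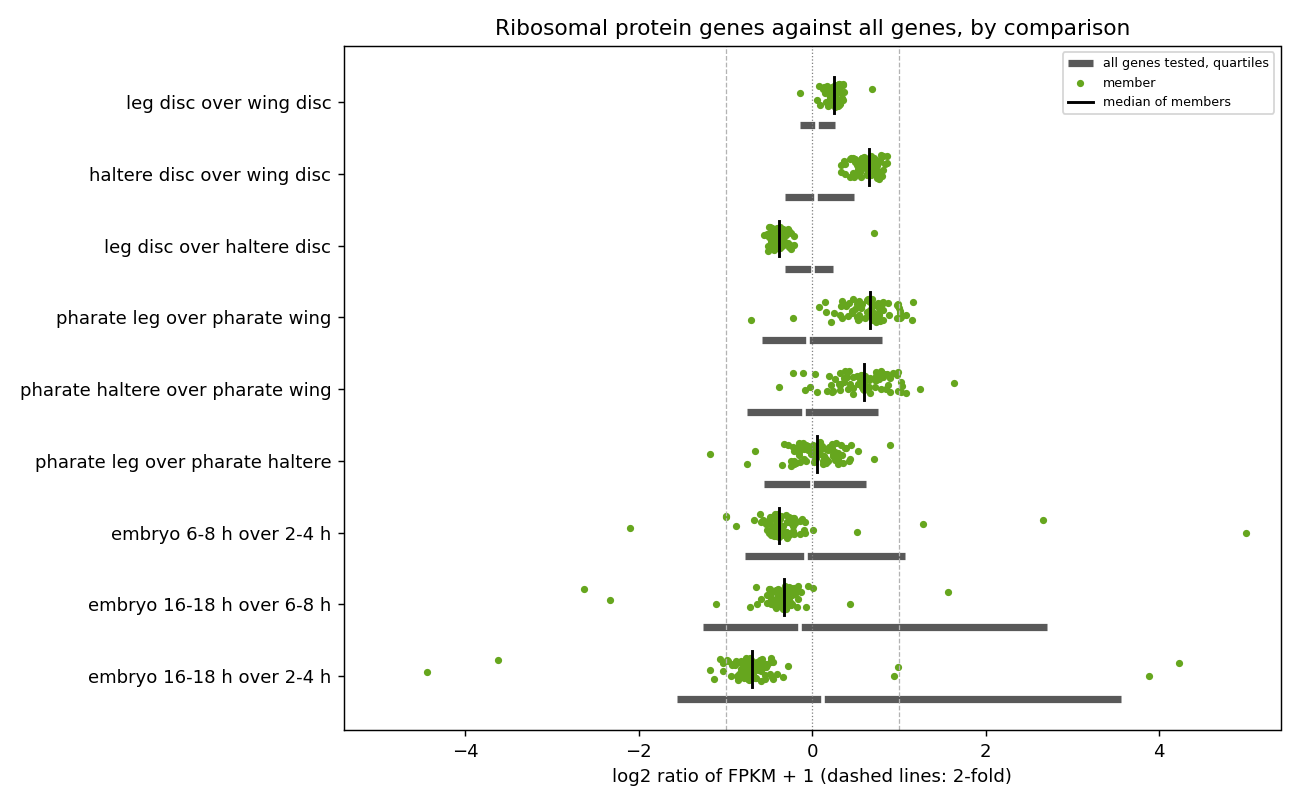
Log2 ratio of FPKM + 1 (horizontal axis) in each of 9 comparisons (vertical axis), where each green point is a member at 5 FPKM or more in either column, the black line is the members' median and the grey bar spans the quartiles of all genes tested, with the median as a white gap. The members form a narrow band in all 3 disc comparisons and lie right of 0 over the pharate wing and left of 0 in the later embryo; pharate leg over haltere, with a median of 0.06, turns to -0.57 when columns are divided by the summed FPKM outside the members.

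Both the leg and the haltere of the pharate adult had more of most members than the wing. In the pharate leg over the wing, 76 of 78 members had a ratio above 0, against 47.7% of 9011 genes, with a median of 0.67 beside -0.05 for all genes and -0.41 for the 1026 other genes at 1000 FPKM or more. A total of 8 members were 2-fold higher and none was 2-fold lower, against 21.7% and 14.7% of all genes. At 1.5-fold, 47 were higher and 1 lower, against 29.7% and 25%. They included RpS9, RpL18, RpL30, RpL41, RpS10b and RpL32. RpS9, which binds near the entry of the messenger RNA, was at 11815 FPKM in the leg, against 5266 in the wing, a ratio of 1.17. RpL18 was at 7380 against 3315 FPKM, a ratio of 1.15, and RpL30 at 5222 against 2459 FPKM, a ratio of 1.09. RpS3A stood apart, at 11146 FPKM in the leg, against 18183 in the wing, a ratio of -0.71, and RpL15, deep in the large subunit, was at 12236 against 14222 FPKM, a ratio of -0.22. RpL38 (0.08), RpL5 (0.15) and RpL21 (0.16) had the next lowest ratios, and these 5 were the members that lay more than 0.5 below the members' median, while none lay more than 0.5 above it.

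In pharate haltere over wing, 73 of 78 members were above 0, against 46.5% of 8990 genes, with a median of 0.59 beside -0.10 for all genes. A total of 6 were 2-fold higher and none 2-fold lower, against 20.3% and 18.8% of all genes, and 42 were at least 1.5-fold higher and none lower, against 29.2% and 30.6%. RpL34a had the highest ratio, with 1416 FPKM in the haltere, against 456 in the wing, a ratio of 1.63. RpL41 followed, at 14580 against 6185 FPKM, a ratio of 1.24, then RpL35 (1.08), RpL30 (1.04), RpS10b (1.02) and RpL13 (1.02). RpL39, a small protein of the exit tunnel, was the lowest, at 4712 FPKM in the haltere, against 6165 in the wing, a ratio of -0.39. RpS14a (-0.11), RpL15 (-0.08) and RpS14b (-0.03) were also below 0. RpS3A was nearly level here, at 18845 against 18183 FPKM, a ratio of 0.05. Divided by the summed FPKM outside the members, the haltere-over-wing median became 1.28, with 65 members 2-fold higher and all 78 above 0, RpL39 included, while all genes moved by 0.67. The leg-over-wing median became 0.73, while all genes moved by 0.06. These comparisons share the wing column.

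The pharate leg and haltere had nearly the same level of the median member, and no direction is given for the family. The median of 78 members was 0.06 as deposited and -0.57 after division by the summed FPKM outside the members, which moved all genes by -0.61. As deposited, 49 members were above 0, against 49.8% of 9044 genes, none was 2-fold higher and 1 was 2-fold lower, against 17.1% and 14.3%. At 1.5-fold, 2 were higher and 3 lower, against 25.9% and 24.1%. The 2-fold lower gene was RpL34a, at 626 FPKM in the leg, against 1416 in the haltere, a ratio of -1.18. RpS3A (-0.76), RpL38 (-0.67), RpL35 (-0.35) and RpS20 (-0.32) followed. RpL38 was at 3759 FPKM in the leg, against 5962 in the haltere and 3559 in the wing, so that the haltere stands apart. RpL39 (0.71), RpS15Ab (0.53), RpS14a (0.45) and RpS14b (0.44) were among the highest ratios.

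Ratios varied more among members in pharate tissues than in discs, as did those of all genes. Within 0.25 of the members' median lay 52 of 78 members in pharate leg over wing, 45 of 78 in pharate haltere over wing and 54 of 78 in pharate leg over haltere. In discs the same counts were 77 of 79, 73 of 78 and 78 of 79. The interquartile range of all genes was 1.39, 1.51 and 1.18 in these pharate comparisons and 0.41, 0.80 and 0.55 in discs. RpS3A was the highest member in the pharate haltere, at 18845 FPKM, and in the pharate wing, at 18183 FPKM, and RpLP2 in the pharate leg, at 16652 FPKM. RpS3A stood at 1.17, 2.20 and 3.17 times the median member in pharate leg, haltere and wing, against 0.956, 0.950 and 1.06 times in leg, haltere and wing discs. The 7 muscle markers summed to 272220 FPKM for pharate leg, 14740 for haltere and 28360 for wing, although Mhc and up were listed at 0 in all 3 tissues and wupA in the leg. Haemocyte markers were higher over the wing: Hml was at 213 FPKM for leg, 240 for haltere and 44.3 for wing, and eater at 128, 111 and 32.7 FPKM in the same order, while Pxn was listed at 0 in the leg. Of the fat body markers tested, 4 of 5 were 2-fold higher in leg over wing, against 21.7% of all genes. In haltere over wing it was 1 of 4, near the 20.3% of all genes. Fat body sums were 150 FPKM for leg, 71.3 for haltere and 52.6 for wing. These are low levels: the highest single value, of Lsp2 in the leg, was 60.0 FPKM. The part of these markers in the pharate ratios was not tested. Midgut markers were at 0 in all pharate tissues and salivary gland markers summed to at most 0.685 FPKM in each.

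In embryos nearly every member was lower at each later stage. At 6 to 8 h over 2 to 4 h, 77 of 82 members were below 0, against 52% of 8244 genes, with a median of -0.38 beside -0.07 for all genes. A total of 3 were 2-fold higher and 1 was 2-fold lower, against 25.9% and 18.9%, and at 1.5-fold 3 were higher and 7 lower, against 33.9% and 31.1%. The 2-fold higher ones were RpS19b and, both listed at 0 at 2 to 4 h, RpL22-like and RpL37b; the lower one was RpS10a. All 4 are scarce copies of duplicated genes. At 16 to 18 h over 6 to 8 h, 79 of 82 were below 0, against 52.6% of 10173 genes, with a median of -0.32 beside -0.14 for all genes, and 1 was 2-fold higher (RpL22-like) and 3 lower (RpS10a and RpL37b among them), against 34.7% and 31.1%. At 1.5-fold, 1 was higher and 7 lower, against 38.9% and 40.3%. At 16 to 18 h over 2 to 4 h, 78 of 82 were below 0, against 48.5% of 10190 genes, with a median of -0.70 beside 0.12 for all genes. A total of 2 members were 2-fold higher, RpL22-like and RpL37b, and 7 lower, against 41.2% and 33.5%. At 1.5-fold, 4 were higher and 58 lower, against 44.8% and 40.3%. The comparisons share columns.

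The lower ones included RpS10a and RpL34a, which have copies, and 4 members without a copy. Of these 4, RpS3A was at 33832, 25265 and 15392 FPKM at the successive stages, a ratio of -1.14 for the last over the first. RpS20 was at 23861, 17843 and 11390 FPKM (-1.07), RpL21 at 27581, 20225 and 13479 FPKM (-1.03), and RpL4 at 19813, 12400 and 9732 FPKM (-1.03). RpLP0 differed in timing: its ratio was -0.99 at 6 to 8 h over 2 to 4 h and 0.01 at 16 to 18 h over 6 to 8 h. RpL39 was level at first, with 0.01 and then -0.42, and RpL38 had the smallest overall difference of the unduplicated members, at 9616, 9095 and 7920 FPKM (-0.28).

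Scaling changes the size of the embryo medians and not their sign. After division by the summed FPKM outside the members they were -0.069, -0.34 and -0.40 in the 3 comparisons above, with 32, 2 and 5 of 82 members above 0, where all genes moved by 0.31, -0.02 and 0.29. Centred on all genes they were -0.32, -0.18 and -0.82. The share of summed FPKM, 33.7%, 33.0% and 27.5% at the successive stages, follows the same order. It too sets the members against the rest of the column and is no separate check on that division. Levels at 2 to 4 h include RNA that the mother placed in the egg, and the germline markers vas, nos, osk and bam summed to 476, 61.8 and 40.5 FPKM at the 3 stages. Their part in the embryo ratios was not tested.

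Of the 84 members, 20 belong to 10 sets of duplicated genes, and their use of copies differed from set to set. RpS10a, a scarce copy, was at 631, 146 and 28.1 FPKM at the successive embryo stages, 3.23%, 0.970% and 0.261% of the summed RpS10 FPKM, and its ratio was -2.10 at 6 to 8 h over 2 to 4 h and -2.34 at 16 to 18 h over 6 to 8 h. It was listed at 0 elsewhere, where RpS10b carried the whole sum. The RpS10 sum had log2 ratios of -0.38 at 6 to 8 h over 2 to 4 h, -0.48 at 16 to 18 h over 6 to 8 h and -0.86 at 16 to 18 h over 2 to 4 h, beside medians of -0.40, -0.32 and -0.71 for members without a copy. Other scarce copies were higher at 16 to 18 h than at 2 to 4 h, RpL22-like at each later stage and RpS19b and RpL37b with their highest value at 6 to 8 h. RpS19b was at 9.74, 25.0 and 20.4 FPKM, RpL22-like at 0, 5.34 and 17.8 FPKM and RpL37b at 0, 31.1 and 13.8 FPKM in embryos of 2 to 4, 6 to 8 and 16 to 18 h. Each held at most 0.291% of its set in every column.

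In 3 sets the less abundant copy held a sizeable share in every column. RpS14b held between 26.0% and 37.4% of RpS14, RpS15Ab between 23.7% and 28.5% of RpS15A, and RpL34a between 13.6% and 24.7% of RpL34. RpL34a varied most of these in pharate tissues, with 13.6% of the set for leg, 23.3% for haltere and 16.1% for wing. RpL34b, the main copy, was at 3989 FPKM for leg, 4655 for haltere and 2372 for wing. How reads that match both copies were assigned is not given in the sources used here, so the split between near-identical copies such as RpS14a and RpS14b is uncertain, and sums over a set depend on it too if such reads were dropped or counted at each copy. In pharate haltere over wing the RpS14 sum, 10238 against 10833 FPKM, gave a ratio of -0.08, beside a median of 0.60 for members without a copy.

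**Figure D4:**
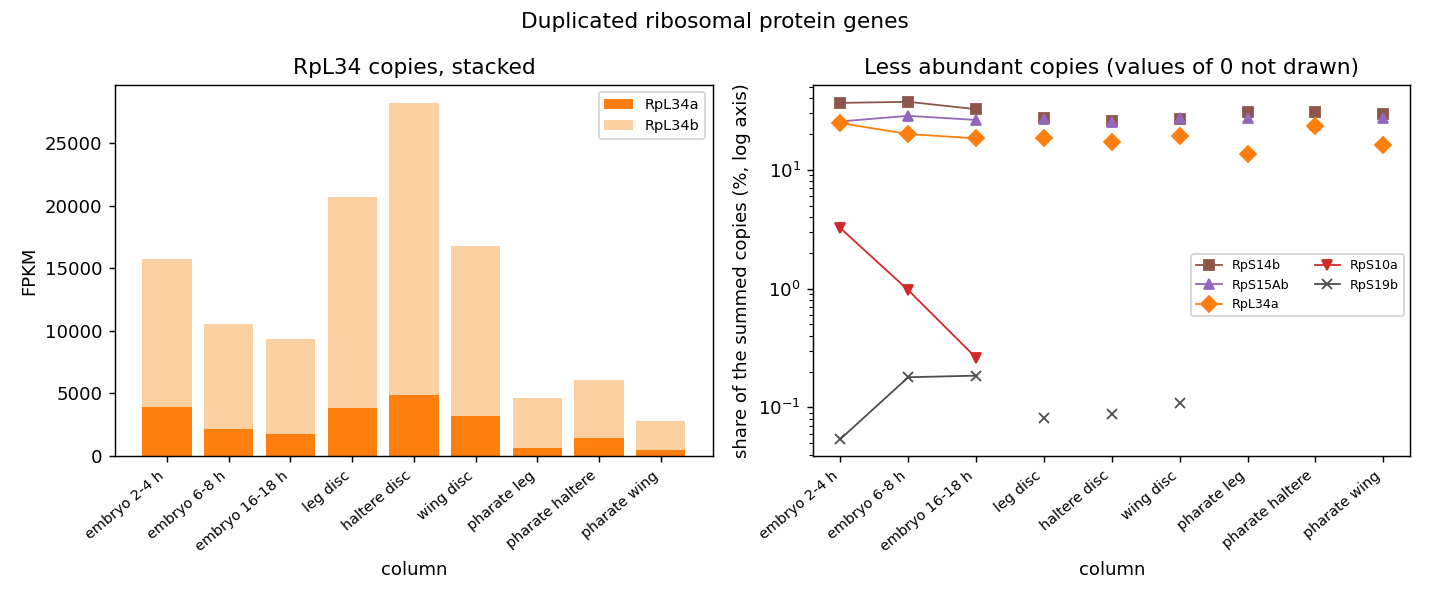
Left, FPKM (vertical axis) of RpL34a and RpL34b stacked in each of the 9 columns (horizontal axis); right, share in percent (vertical axis, log scale) that the less abundant copy of 5 sets holds of its summed set, with values of 0 not drawn and lines joining embryo stages only. RpS10a holds 3.23%, 0.970% and 0.261% of RpS10 in embryos of rising age, while RpS14b, RpS15Ab and RpL34a keep between 13.6% and 37.4% throughout.

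The members are spread over all chromosome arms, and all 84 matched a gene of the RefSeq Release 6 assembly, which was used for gene order alone because the deposited values were made on dm3. Order was counted over the 9944 placed genes only, whose symbols or synonyms matched a deposited name. In that order the pairs RpS14a and RpS14b, on X, and RpL12 and RpL39, on 2R, are direct neighbours. Unmatched genes may lie between them. Position was looked at after the ratios were seen. The 5 lowest members of pharate leg over wing were RpS3A, the only member on chromosome 4, and the only 4 members among the first 20 genes counted from the centromere of another arm: RpL15 on 3L, RpL5 and RpL21 on 2L and RpL38 on 2R. In pharate haltere over wing, which shares the wing column, RpL15 (-0.08), RpL5 (0.03), RpS3A (0.05) and RpL21 (0.32) were below the members' median of 0.59 and RpL38 (0.74) above it. In the leg disc over the wing disc the 5 had ratios from 0.09 (RpS3A) to 0.36 (RpL38), beside a median of 0.25.

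Other genes in the same places were also low over the pharate wing. The 77 genes outside the members among the first 20 from a centromere had a median ratio of -0.68 in pharate leg over wing, the 46 on chromosome 4 one of -0.53, and all 6267 placed genes outside the members one of -0.05. In pharate haltere over wing these medians, as deposited, were -0.38, -0.68 and -0.12. In pharate leg over haltere, which leaves out the wing column, they were -0.26, 0.04 and 0.01 as deposited. Genes on chromosome 4 were not low there. RpS3A was at -0.76 in that comparison, RpL38 at -0.67, RpL21 at -0.15, RpL15 at -0.14 and RpL5 at 0.12, beside a members' median of 0.06. For leg over wing disc the same medians of genes outside the members were 0.02, -0.14 and 0.05, and for haltere over wing disc -0.06, -0.32 and 0.04. Genes on chromosome 4 were thus low over the wing disc too. In leg over wing disc 71.4% of those outside the members were below 0, against 42.6% of all placed. In pharate leg over wing these shares were 58.7% and 52.2%. At 16 to 18 h over 2 to 4 h the chromosome 4 median was 1.86, where RpS3A was at -1.14. The 5 members are described for this shared position, with no test, because they were picked by it after their values were known.

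**Figure D5:**
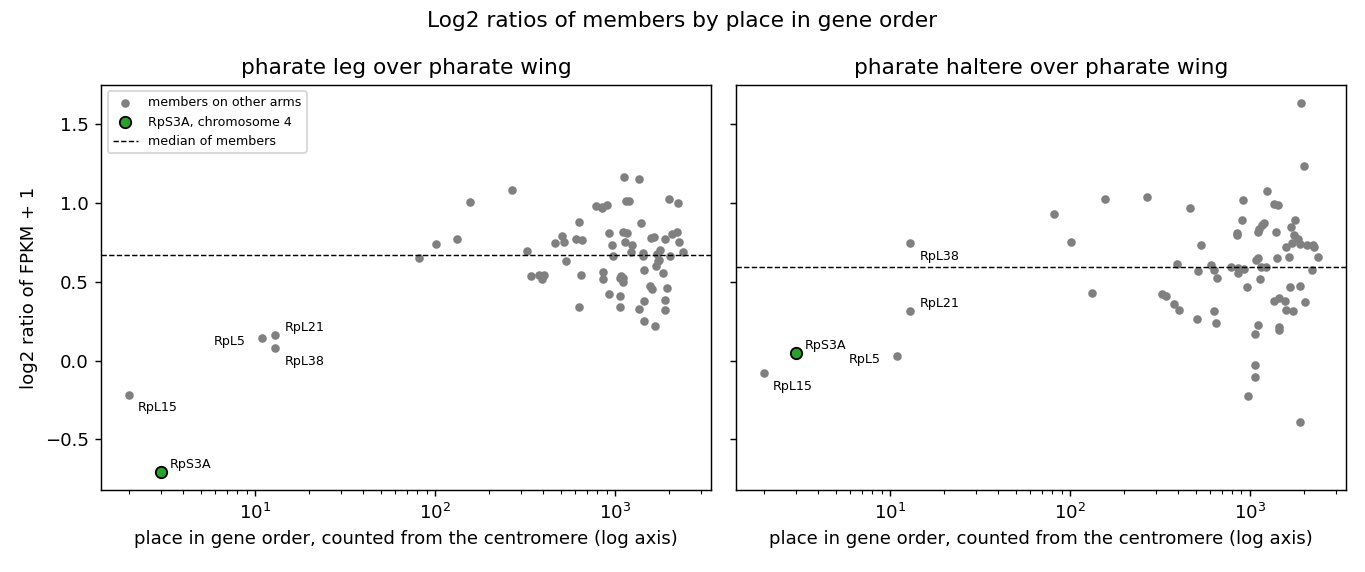
Log2 ratio of FPKM + 1 (vertical axis) of each member against its place in gene order counted from the centromere of its arm (horizontal axis, log scale), for pharate leg over wing (left) and pharate haltere over wing (right), which share the wing column; the dashed line is the members' median. RpS3A on chromosome 4 and RpL15, RpL5, RpL21 and RpL38 hold the 5 lowest ratios on the left, from -0.71 to 0.16, and on the right RpL38 lies above the median.

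The 4 ribosomal protein genes under older names had levels and ratios like those of the members. RpSA (sta) was at 42222 FPKM for leg disc, 57444 for haltere disc and 38357 for wing disc, and RpS2 (sop) at 40811, 52052 and 37159 FPKM in the same discs. In haltere over wing disc the ratios were 0.58 for sta, 0.88 for oho23B, 0.49 for sop and 0.61 for Qm. In pharate leg over wing they were 1.00, 0.74, 0.60 and 0.41 in the same order, and at 16 to 18 h over 2 to 4 h -0.83, -0.49, -0.95 and -0.84.

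The genes of the mitochondrial ribosome differed from the cytosolic set in size and, in embryos, in course. In discs their median ratio was 0.13 in leg over wing, 0.33 in haltere over wing and -0.23 in leg over haltere. Divided by the summed FPKM outside the members these medians turn sign, to -0.032, -0.19 and 0.13. None was 2-fold higher, and 1, 1 and 0 of 71, 71 and 70 genes were 2-fold lower. Of all genes, 10.7%, 15.5% and 3.24% were higher and 3.55%, 4.29% and 12.6% lower, in the same order. In pharate leg over wing, 31 of 70 mitochondrial genes were 2-fold higher and none lower, against 21.7% and 14.7% of all genes. Their median there was 0.86. In pharate haltere over wing, 51 of 70 were higher and none lower, against 20.3% and 18.8%, and their median was 1.31. At 16 to 18 h over 6 to 8 h their median was 0.22, while the cytosolic median was -0.32, and at 6 to 8 h over 2 to 4 h it was -0.50. The mitochondrial median at 16 to 18 h over 2 to 4 h was -0.24 as deposited and 0.054 after that division, so it turns sign as well.

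Ribosome biogenesis factors, which make ribosomal RNA and assemble subunits in the nucleolus, followed the ribosomal proteins in some comparisons only. Of 27 listed, 17 matched a gene name and were tested. All 17 were 2-fold lower at 16 to 18 h than at 6 to 8 h, against 31.1% of all genes, with a median of -1.51. Fib, which methylates ribosomal RNA, was at 646 FPKM at 16 to 18 h and 2516 at 6 to 8 h, a ratio of -1.96, and the nucleolar helicase pit (-1.82) and ppan (-1.80) followed. At 6 to 8 h over 2 to 4 h the median was 0.11. Of the 17, 2 were 2-fold higher and 0 lower, against 25.9% and 18.9% of all genes. In discs none was 2-fold apart, and the medians were -0.19 in leg over wing, -0.39 in haltere over wing and 0.13 in leg over haltere. The sign in each is opposite to that of the ribosomal proteins, as deposited and after division by the summed FPKM outside the members, which gave -0.35, -0.91 and 0.48.

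In the pharate haltere the biogenesis list stood higher than in leg or wing. In haltere over wing, 9 of 17 were 2-fold higher and none lower, against 20.3% and 18.8% of all genes, with a median of 1.09. Nop60B, the enzyme that forms pseudouridine in ribosomal RNA, was at 94.1 FPKM in the haltere, against 14.1 in the wing, a ratio of 2.65, followed by Fib (2.08) and Nop56 (1.92). In leg over haltere 12 of 17 were 2-fold lower, against 14.3% of all genes, with a median of -1.36. Nop60B (-2.42) and NHP2 (-1.89) led, and pit was listed at 0 in the leg. The leg-over-wing median was -0.28, with none 2-fold higher and 1 lower, pit, against 21.7% and 14.7% of all genes. The median ribosomal protein was at 0.67 there.

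Translation factors had medians near 0 in discs and pharate tissues as deposited and below 0 in embryos. Of the translation factors, 30 or 31 of 32 listed could be tested in discs and pharate tissues, with medians of 0.01 in leg over wing disc, 0.11 in haltere over wing disc, -0.10 in pharate leg over wing and -0.0018 in pharate haltere over wing. Divided by the summed FPKM outside the members these became -0.15, -0.41, -0.039 and 0.69, so that both disc values and that of pharate haltere over wing turn sign. In embryos their median was -0.42 at 6 to 8 h over 2 to 4 h, with 8 of 29 above 0, and -0.68 at 16 to 18 h over 6 to 8 h, with 5 of 31 above 0. At 16 to 18 h over 2 to 4 h, 41.2% of all genes were 2-fold higher and 33.5% lower. Of the 31 factors, 3 were higher and 16 lower, with a median of -1.07. Of the 3, eIF-4a and pAbp are listed at 0 at 2 to 4 h, so their ratios rest on listed zeros, and Nacalpha is the other. The subunit eEF1delta of the elongation complex was at 825 against 4654 FPKM, a ratio of -2.49, and Nacalpha, which binds the growing chain, at 3523 against 638 FPKM, a ratio of 2.46. Rack1, which sits on the small subunit, was at 27753 FPKM in the haltere disc, against 20628 in the wing disc, a ratio of 0.43, and at 9619 FPKM in the pharate leg, against 4532 in the pharate wing, a ratio of 1.09. Of 17 growth regulators listed, 14 could be tested. Thor, the inhibitor of eIF4E, was at 1718 FPKM in the haltere disc, against 187 in the wing disc, a ratio of 3.19. The TOR complex part raptor was at 18.4 against 43.1 FPKM in the same discs, a ratio of -1.18. The list's median there was -0.48, with 4 of 14 above 0. Over the other comparisons of discs and pharate tissues it was between -0.32 and 0.26, and over those of embryos between -0.062 and 0.094, and after division by the summed FPKM outside the members it turned sign to 0.33 in pharate haltere over wing and to -0.36 in pharate leg over haltere.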

How the data were processed

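Messenger RNA taken with oligo(dT) was sequenced by the authors, who deposited FPKM values in 3 tables of 3 columns, per the file headers. CASAVA 1.7, Bowtie 0.12.3, TopHat 1.1.4, Cuffdiff, MACS2 and the build dm3 are named, without roles, by the submitters' processing notes. Column scaling and read depth are not given in the sources used here, so no interval for a listed value and no limit of detection could be set. FAIRE peak lists were not used here.

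Gene names that occur more than once (77 names, 248 entries) were dropped. Ratios were log2((FPKM + 1)/(FPKM + 1)) over genes at 5 FPKM or more in either column, with 2-fold as the limit and 1.5-fold as an alternative; no test is possible with 1 column a tissue. Python 3.11.15, pandas 2.3.3, numpy 2.4.6, scipy 1.17.1 and matplotlib 3.10.9 were used, and the ratio step was checked on simulated data. Named genes were the 5 highest and 5 lowest members by level and by ratio, members listed at 0, duplicated and stalk genes, some with known roles, and up to 3 genes per other list; members may stay undescribed, and a few are not reported here. The members and lists were chosen with earlier results of these data known, and the limits of 0.25 and 0.5 around the median, the level of 1000 FPKM and gene order after the values were seen. A planned count of promoter motifs was not made, as no sequences were used here. Alternatives tried were the pseudocount, the filter, the scaling, the fold limit and the exclusion of duplicated genes.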

Additional observations from a re-analysis of the deposited data

Results flagged for a closer look

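Some members had a ratio of one sign in discs and of the other sign in pharate tissues, past 0.25 in both, a limit chosen after the values were seen. The difference between the stages was not tested, since each tissue has 1 column, and the tables were scaled separately. In haltere over wing this held for 1 of 77 members, against 16% of 7584 genes tested in both: RpL39, at -0.39 in pharate tissues and 0.69 in discs, although all 78 members tested are above 0 in pharate haltere over wing once columns are divided by the summed FPKM outside the members. In leg over haltere it held for 18 of 77, of which 15 are given here, each higher in the pharate leg and lower in the leg disc. Of 7578 genes tested in both, 16.7% met the limit in either direction and 10.4% in this one. The pharate ratios were 0.71 for RpL39, 0.45 for RpS14a, 0.44 for RpS14b, 0.39 for RpL9 and 0.38 for RpS18. They were 0.35 for RpS6, 0.34 for RpL13A, 0.33 for RpS9, 0.32 for RpL8 and 0.30 for RpL3. They were 0.29 for RpL36A, 0.29 for RpL19, and 0.27 for each of RpS26, RpL10Ab and RpL32. The disc ratios of these 15 ran from -0.50 (RpS26) to -0.25 (RpL10Ab). Division by the summed FPKM outside the members leaves 2 of 78 members above 0 in pharate leg over haltere, so the sign of most of these ratios rests on the scaling as deposited. In leg over wing none of 77 met the limit, against 11% of 7404 genes.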

How the results depend on the processing

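Dividing columns by the summed FPKM outside the members gave member medians of 0.091 in leg over wing disc, 0.13 in haltere over wing disc, -0.026 in leg over haltere disc, 1.28 in pharate haltere over wing (65 members 2-fold apart), -0.57 in pharate leg over haltere, reversed from 0.06 (3 apart), -0.069 at 6 to 8 h over 2 to 4 h and -0.40 at 16 to 18 h over 2 to 4 h. Centring on all genes gave 0.20 in leg over wing disc, -0.18 at 16 to 18 h over 6 to 8 h and -0.82 at 16 to 18 h over 2 to 4 h (15 apart), and 10 apart in pharate haltere over wing. At 1.5-fold the numbers apart were 1 in leg over wing disc, 50 in haltere over wing disc, 1 in leg over haltere disc, 48, 42 and 5 in pharate leg over wing, haltere over wing and leg over haltere, and 10, 8 and 62 at 6 to 8 over 2 to 4 h, 16 to 18 over 6 to 8 h and 16 to 18 over 2 to 4 h. Without duplicated genes they were 0 in pharate leg over haltere, 0 and 0 in the first and the second embryo comparison and 4 in the last. A pseudocount of 0.1 gave 2 apart in pharate leg over haltere, and taking all genes above 0 in both columns in place of the 5 FPKM filter gave 2 at 6 to 8 over 2 to 4 h, as it leaves out RpL22-like and RpL37b, listed at 0 at 2 to 4 h. The share in the pharate wing was 8.86% without the 10 highest other genes. The other 141 values stayed within 1.5 times a count or share, or within the binomial interval of a median over members. That interval treats member genes as independent, which they are not, so it served as a yardstick and measures no error between samples. Adding sta, oho23B, sop and Qm, an alternative chosen after seeing the data, moved none further. No paired analysis was possible because each group has 1 column, and no replicate could be left out for the same reason. The promoter motif counts and their shorter window were not run. Depth is unknown.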
